A study of Mus musculus with 2 samples.

Results

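The Mir322 and Mir503 cluster is a run of microRNA genes on the mouse X chromosome. Its 6 genes studied here are Mir322, Mir503, Mir351, Mir542, Mir450b and Mir450-2. They were taken by name from GENCODE mouse release M21 and make up 6 of the 2202 microRNA genes in the count files. Small RNA of under 30 nt was sequenced from the gastrocnemius, the large calf muscle, of female B6CASTF1/J mice aged 2 months, the first-generation cross of C57BL/6J with CAST/EiJ. The series has 1 group and 2 libraries, labelled biological replicates 1 and 2, and no second condition. The animals carry the labels Female 03 (replicate 1) and Female 04 (replicate 2), under 1 shared donor code. Whether the spread between the libraries includes more than technical variation cannot be told from this, and the p-values measure only that spread or counting error.

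MicroRNAs are cut from hairpin precursors, and the arm loaded into Argonaute pairs with target transcripts mainly through its seed, bases 2 to 8 from the 5′ end. Mir322, the mouse counterpart of human miR-424, and Mir503 are known to rise when myoblasts leave the cell cycle and differentiate, where they act on Cdc25a, a phosphatase that drives cell-cycle entry. Resting adult muscle consists mostly of fused, post-mitotic fibres, with satellite cells as its dormant precursors.

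The arms show which microRNAs the cluster could share targets with. The sequences are RefSeq mature sequences on GRCm38.p6, 5′ to 3′, with the seed in capitals, and all 6 genes had both arms in that table. The first set is shown because Mir322 has its seed in common with the miR-15 and miR-16 family, which is known for restraining the cell cycle, while Mir503 differs from it in the seed.
miR-322-5p: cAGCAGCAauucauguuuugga
miR-503-5p: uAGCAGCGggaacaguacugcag
miR-195a-5p: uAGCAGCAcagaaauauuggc
miR-497a-5p: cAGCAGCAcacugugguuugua
miR-15a-5p: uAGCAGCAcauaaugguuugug
miR-15b-5p: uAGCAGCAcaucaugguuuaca
miR-16-5p: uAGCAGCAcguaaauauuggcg

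Counted from 1 at the 5′ end of miR-322-5p and compared without gaps, miR-503-5p carried the seed substitution A8G. The same comparison found 16 of 22 bases equal with miR-15b-5p, 15 of 22 with miR-15a-5p and with miR-497a-5p, 12 of 22 with miR-16-5p and 11 of 21 with miR-195a-5p. Those 5 arms had no difference in the seed.

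The second set is shown because Mir351 carries the seed of the miR-125 family.
miR-351-5p: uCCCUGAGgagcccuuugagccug
miR-125a-5p: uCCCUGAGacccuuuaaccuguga
miR-125b-5p: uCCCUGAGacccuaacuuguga

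Outside the seed these arms diverge, with 10 of 24 bases equal to miR-125a-5p and 10 of 22 equal to miR-125b-5p.

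The third set holds the arms at the far end of the cluster, which bear on how reads could be placed.
miR-542-3p: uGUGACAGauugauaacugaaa
miR-450a-5p: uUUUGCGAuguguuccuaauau
miR-450b-5p: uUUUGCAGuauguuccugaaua
miR-450a-1-3p: aUUGGGAAcauuuugcauaaau
miR-450a-2-3p: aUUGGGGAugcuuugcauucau
miR-450b-3p: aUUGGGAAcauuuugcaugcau

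The arm miR-450a-5p is encoded in identical form by Mir450-2 and by Mir450-1, a seventh gene of the cluster that is not among the 6. A read of that arm cannot be assigned to either gene from its sequence. Mir450b is similar but distinct. Its 5p arm has 15 of 22 bases equal to miR-450a-5p, with substitutions G7A and A8G in the seed, counted from 1 at the 5′ end of miR-450a-5p. Its 3p arm has 20 of 22 bases equal to miR-450a-1-3p.

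In the mm10 assembly all of these genes lie on the minus strand of the X chromosome, between 53047997 and 53054349, a span of 6353 bp. Mir322 (ENSMUSG00000065418.1, 53054255 to 53054349) comes first in the direction of transcription. Mir503 (ENSMUSG00000076122.1, 53053984 to 53054054) follows after 200 bp and Mir351 (ENSMUSG00000065503.1, 53053255 to 53053353) after a further 630 bp. A gap of 3767 bp, which holds the long noncoding gene Gm28730, separates them from Mir542 (ENSMUSG00000076140.1, 53049403 to 53049487). Mir450-2 (ENSMUSG00000076399.1, 53048299 to 53048367) lies 1035 bp beyond Mir542. Mir450-1 (53048154 to 53048244) and Mir450b (ENSMUSG00000076050.1, 53047997 to 53048078) close the cluster. In GENCODE M21 no other annotated gene contains any of them. RefSeq extends the long noncoding gene C430049B03Rik from 53053112 to 53057190, over Mir322, Mir503 and Mir351, and GENCODE ends that gene upstream of Mir322. C430049B03Rik was the only RefSeq gene looked at here, and it does not hold all 6 genes.

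Own-strand microRNA counts totalled 1950204 in replicate 1 and 2291821 in replicate 2, so 1 count was worth 0.513 and 0.436 CPM, the count scaled to a library total of 1e6. Detection required 10 or more counts in each library, which 278 of the 2202 genes reached. All of the 6 cluster genes were detected, Mir450-2 exactly at that minimum in replicate 1. Of all reads listed, 70.1% and 72.3% are entered as multimapping and belong to no gene. This bears on Mir450-2, on copies within the seed families and on any other gene with a copy. CPM and ranks therefore hold for reads placed in 1 gene. None of the 6 genes had a count on the opposite strand.

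The cluster took 14776 counts in replicate 1 and 19333 in replicate 2. These were 0.758% of all own-strand counts (exact Clopper-Pearson 95% interval 0.746 to 0.770) and 0.844% (0.832 to 0.855), a mean of 0.801% ± 0.0607 (SD, n = 2). The intervals did not overlap, but the direction depends on the denominator. Without Mir143, the most abundant gene, in the total, the share was 0.943% (0.928 to 0.958) in replicate 1 and 0.931% (0.918 to 0.945) in replicate 2. Over all reads listed it was 0.157% and 0.134%. So no direction between the libraries is read from the cluster's share. Sequenced reads come from PCR copies without molecular identifiers, so these and later intervals reflect counting error alone. How evenly arms of different sequence entered the libraries was not tested. Levels, shares and ratios between genes are therefore those of reads. In a bulk sample, fewer cells of a type and less RNA per cell cannot be told apart.

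Mir322 carried nearly all of it. It had 13701 counts, or 7025 CPM, in replicate 1 and 17871 counts, or 7798 CPM, in replicate 2, a mean level of 7412 CPM ± 546 (SD, n = 2). By placed reads it stood 22nd among all microRNA genes in both libraries, and genes with copies could rank higher than their placed reads show. Its share of the cluster's counts was 92.7% (92.3 to 93.1) and 92.4% (92.1 to 92.8), and these intervals overlapped.

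Mir351, which has the miR-125 seed, was the second gene, at 572 counts (293 CPM) and 785 counts (343 CPM), a mean of 318 CPM ± 34.8 (SD, n = 2). Mir322 exceeded it 24.0-fold in replicate 1 and 22.8-fold in replicate 2. Mir542 had 316 counts (162 CPM) and 383 counts (167 CPM), a mean of 165 CPM ± 3.59 (SD, n = 2). Among the RefSeq arms matched to genes of the files, no other gene had the seed of its 3p arm. Mir322 exceeded Mir542 43.4-fold and 46.7-fold in CPM.

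Mir503, the other gene named with Mir322 in myoblast differentiation, was only the fourth of the 6. It had 116 counts (59.5 CPM) in replicate 1 and 189 counts (82.5 CPM) in replicate 2, a mean of 71.0 CPM ± 16.3 (SD, n = 2). Mir322 exceeded its close neighbour Mir503 118-fold and 94.6-fold in reads, although only 200 bp separate the hairpins. Mir450b had 61 counts (31.3 CPM) and 79 counts (34.5 CPM). Mir450-2 had 10 counts (5.13 CPM) and 26 counts (11.3 CPM), above the level of 3 counts, which is 1.54 and 1.31 CPM. The non-member Mir450-1 had 0 counts in replicate 1, which allows up to 1.54 CPM, and 7 in replicate 2, or 3.05 CPM. Mir450-2 and Mir450-1 share a stretch of 20 nt, so reads that fit both are in neither count. The other 5 of the 6 genes share no such stretch with another microRNA gene.

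**Figure D1:**
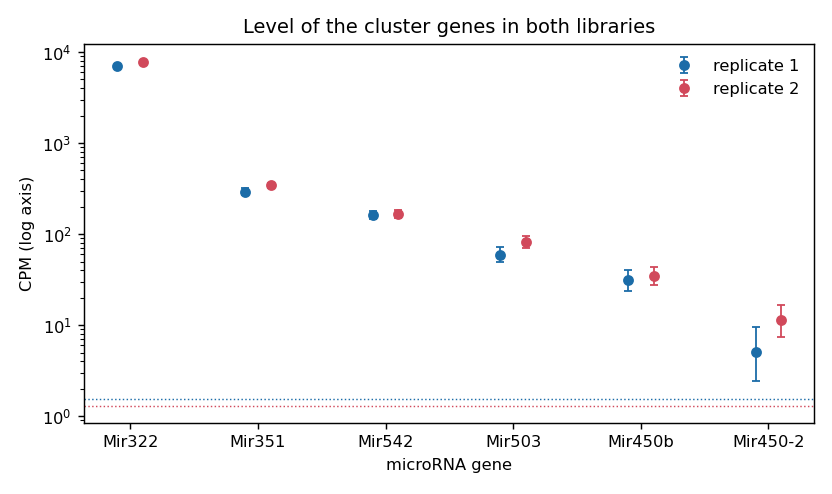
CPM on a log axis of the 6 cluster genes in replicate 1 (blue) and replicate 2 (red), with exact 95% counting intervals as bars, which are smaller than the point for Mir322, and the level of 3 counts as dotted lines. Mir322, at 7025 and 7798 CPM, stands far above the others, and the order of the 6 genes is the same in both libraries.

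The order by CPM was Mir322, Mir351, Mir542, Mir503, Mir450b and Mir450-2 in both libraries, and no 2 neighbours in that order overlapped between libraries. The last place of Mir450-2 holds only for reads placed in 1 gene. From Mir351 to Mir542 the ratios were 1.81 and 2.05, and the lower value of Mir351 (293 CPM) was above the higher of Mir542 (167 CPM). From Mir503 to Mir450b the ratios were 1.90 and 2.39, and the lower value of Mir503 (59.5 CPM) was above the higher of Mir450b (34.5 CPM). CPM here is not divided by hairpin length, because each read is about as long as a mature arm. Divided by the annotated length, the values kept the same order, from 7802 CPM per 100 nt for Mir322 to 321 for Mir351, 194 for Mir542, 40.1 for Mir450b and 11.9 for Mir450-2. The counts are per gene and cannot be split between the 5p and 3p arms.

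Levels did not follow the order of the genes along the DNA. Mir503, 295 bp downstream of the 5′ end of Mir322, was lower in CPM than Mir351 at 996 bp and Mir542 at 4862 bp. Mir450b, the last gene at 6271 bp, is not ranked against Mir450-2 at 5982 bp, since reads shared with Mir450-1 are missing from the latter. Thus the gene next to the most abundant one was not the second most abundant in either library.

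**Figure D2:**
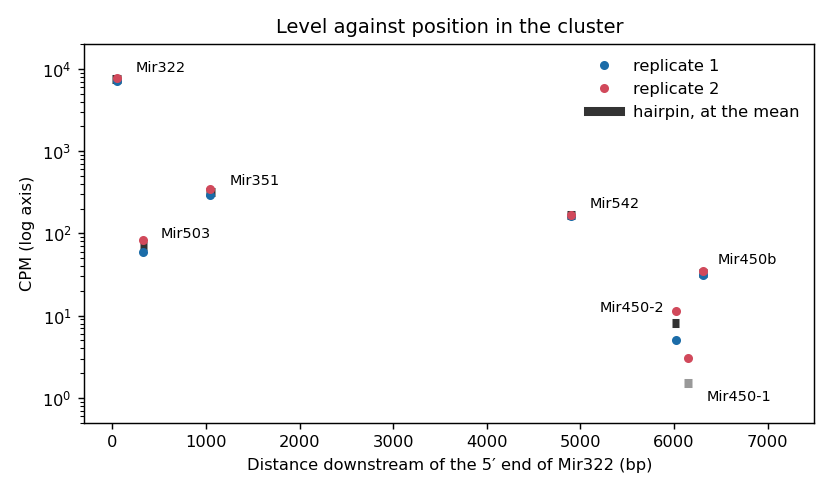
CPM on a log axis against distance downstream of the 5′ end of Mir322, with the hairpins drawn to scale at their mean level and points for replicate 1 (blue) and replicate 2 (red). Mir450-1 (grey) is no member and its 0 counts in replicate 1 are not drawn. Mir503 lies below both Mir351 and Mir542 although it is nearest to Mir322.

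The makeup of the cluster was compared as each gene's share of the cluster's counts. Mir351 held 3.87% of the cluster's counts (3.57 to 4.19) in replicate 1 and 4.06% (3.79 to 4.35) in replicate 2. Mir542 held 2.14% (1.91 to 2.38) and 1.98% (1.79 to 2.19). Mir503 held 0.785% (0.649 to 0.941) and 0.978% (0.844 to 1.13), Mir450b 0.413% and 0.409%, and Mir450-2 0.0677% (0.0325 to 0.124) and 0.134% (0.0879 to 0.197). For each of the 6 genes the intervals of the libraries overlapped, so a difference in makeup was not detectable at this depth.

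The libraries were compared gene by gene over all 278 detected genes, which compares these 2 libraries and not conditions. Calls needed at least 2-fold and an adjusted p under 0.05 in a two-sided exact binomial test on TMM-scaled library sizes with Benjamini-Hochberg adjustment. Of all detected genes 33 were called, or 11.9%, and 0 of the 6 cluster genes. With this scaling all 6 had log2 ratios above 0, replicate 2 over replicate 1, with a median of 0.22, beside a median of −0.03 over all detected genes, of which 136 were above 0 and 142 below. The direction was not the same under every scaling. With totals that leave out Mir143, Mir322, Mir542 and Mir450b had log2 ratios of −0.02, −0.13 and −0.03, beside a median of −0.24 over all detected genes. With totals of all reads listed, Mir322, Mir351, Mir542 and Mir450b were below 0, from −0.33 to −0.16, beside a median of −0.44. Genes of 1 cluster are not independent of each other, so 6 of 6 is a description.

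With TMM scaling the log2 ratio of Mir322 was 0.18 (SE 0.0164, counting error), a 1.14-fold higher level in replicate 2 with an adjusted exact binomial p of 6.31e-29. The direction for Mir322 turned with the totals above. For Mir503 the log2 ratio was 0.50 (SE 0.170, adjusted exact binomial p = 0.00583) and for Mir351 0.26 (SE 0.0793, adjusted exact binomial p = 0.00237). With this scaling these 3 genes differed beyond counting error but by less than 2-fold. Mir542 and Mir450b had log2 ratios of 0.08 and 0.17 that missed the threshold (adjusted p = 0.571 and 0.573, same exact test). For Mir450-2 the log2 ratio of 1.14 (SE 0.526) passed the fold minimum and missed the threshold (adjusted exact binomial p = 0.0517), at 10 against 26 counts. Without a fold minimum, 3 of the 6 cluster genes (Mir322, Mir503 and Mir351) were called higher in replicate 2, where 24.8% of all detected genes were, and 55.4% in either direction. With the 2-fold minimum and other settings, 0 of the 6 were called. The share of all tested genes called was then 12.2% without TMM scaling, 11.5% with DESeq2 size factors, 12.2% on counts of either strand, 10.6% with at least 1 count in each library, 8.7% with at least 50, where Mir450-2 was not tested, and 8.23% with no minimum. It was 15.5% with totals that leave out Mir143 and 20.5% with totals of all reads listed.

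A second test allowed for spread beyond counting error. With the common dispersion edgeR estimated from the 278 genes, a coefficient of variation of 0.352, edgeR's exact test gave unadjusted p-values from 0.252 for Mir450-2 to 0.919 for Mir542 and adjusted p-values of 1.00 for all 6, and called 7 of all detected genes, or 2.52%. At an unadjusted p under 0.05 that test passed 19 of the 278 genes, and 0 of the 6. That dispersion comes from the same 2 libraries that are compared, with no further replicate, so these p-values say nothing about whether the 6 genes are stable between animals.

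**Figure D3:**
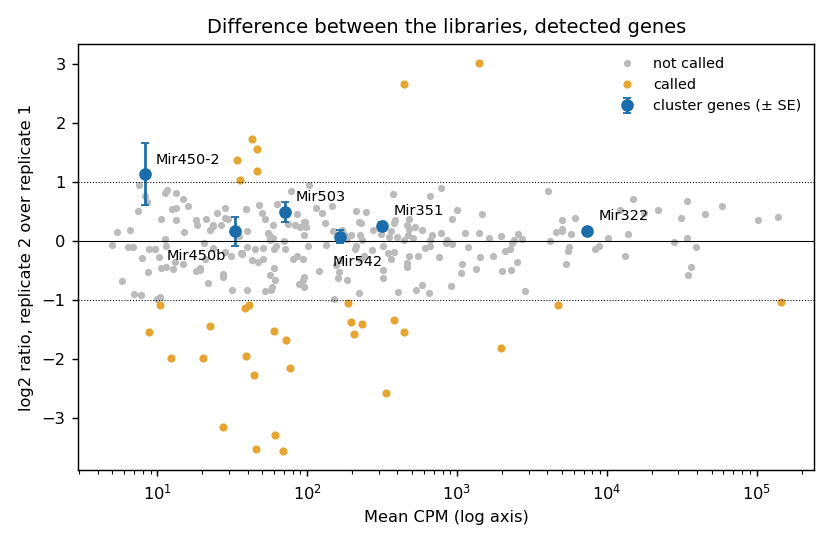
TMM-scaled log2 ratio of replicate 2 over replicate 1 against mean CPM on a log axis for the 278 detected genes, grey where not called and orange where called, with the 6 cluster genes in blue and the SE from counting error as bars. The dotted lines mark the 2-fold minimum. Mir322, Mir351, Mir542, Mir503 and Mir450b lie between 0.08 and 0.50, with Mir450-2 at 1.14 and a wide bar. With totals that leave out Mir143, Mir322, Mir542 and Mir450b fall below 0, and with totals of all reads listed Mir351 does too.

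The striated muscle markers of the labelled tissue were present, with Mir206 at 26708 and 41933 CPM. The summed shares below are of own-strand counts, on which the cluster's was 1.11-fold higher in replicate 2. Other totals, on which the direction of the cluster's share turned, were not tried for the lists. The share of the striated muscle list was 1.67-fold higher in replicate 2 (2.79% and 4.66% of counts). Of its 10 genes 9 were detected, none was at 0 and 2 were called higher. Those 2 were Mir208b at 122 and 761 CPM and Mir499 at 315 and 2497 CPM. In that list Mir1a-1, Mir1a-2, Mir133a-1, Mir133a-2 and Mir133b share 20 nt with other genes. Mir486 has Mir3107 on its opposite strand, and sequence shared by overlapping genes was not looked for. Reads that fit several genes are missing from its sum. Mir206 alone had 52086 of its 54501 counts in replicate 1 and 96104 of 106727 in replicate 2. Shares are therefore not compared between lists. The endothelial list had 12.1% and 15.7%, with Mir126a detected and Mir126b at 0 counts. The smooth muscle list, 2 of 3 detected, had 20.3% and 9.73%, the fibroblast list, 4 of 5 detected, 4.35% and 3.18%, and the leukocyte list, with all 4 genes present in the files detected, 0.315% and 0.246%. The red cell list had 0.0787% and 0.0460% (2 of 2 detected), and the glial list 0.308% and 0.0862% (1 of 3). The satellite cell list had 0.613% and 0.619% (4 of 5). Its most abundant members, Mir195a and Mir497, also belong to the seed family of Mir322, while its members Mir31 and Mir708 were called lower in replicate 2, and Mir489 had 0 and 2 counts. The part of these cell types in the cluster's level was not tested.

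Mir322 was the most abundant gene of its own seed family among reads that could be placed. In RefSeq's mature sequences, 11 microRNA genes of the files have an arm with that seed, and 7 of them were detected. Their levels summed to 17630 and 17763 CPM. Mir322 held 39.8% of the family's counts (39.3 to 40.4) in replicate 1 and 43.9% (43.4 to 44.4) in replicate 2, a mean of 41.9% ± 2.86 (SD, n = 2). Mir195a was next at 4757 and 5274 CPM, followed by Mir15a at 2844 and 2184 CPM and Mir16-1 at 1570 and 1106 CPM. Mir497, the neighbour of Mir195a on chromosome 11, had 755 and 817 CPM, and Mir16-2 and Mir15b had means of 320 and 312 CPM. Mir322 was the highest of the 7 in both libraries. Mir16-1 and Mir16-2 encode the same mature arm, so reads that fit both genes are in neither value, and what they would add to the family was not tested. The other 4 genes with that seed, Mir195b, Mir6342, Mir6353 and Mir6419, had 0 counts in both libraries.

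Within this family the genes did not all differ in the same direction between libraries. Mir322, Mir195a, Mir497 and Mir15b had log2 ratios of 0.18, 0.18, 0.15 and 0.12, and Mir15a, Mir16-1 and Mir16-2 had −0.35, −0.47 and −0.48. Of these 7 genes 0 were called, beside 11.9% of all detected genes, and these signs hold for TMM scaling. Without Mir322 the median of the other 6 was −0.11.

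Mir351 was a minor part of the miR-125 seed family. It held 6.69% of the family's counts (6.17 to 7.24) in replicate 1 and 12.8% (11.9 to 13.6) in replicate 2. Among placed reads Mir125a led the family at 3654 CPM and 1994 CPM, with a log2 ratio of −0.84, which was not called. Mir125b-2 and Mir125b-1, which encode the same arm and share 20 nt, had means of 225 and 165 CPM. Reads that fit both are in neither value, so the shares of Mir351 and the lead of Mir125a hold for placed reads only. Between the libraries Mir125a thus differed by more CPM than the whole level of Mir351 (293 and 343 CPM). Among the RefSeq arms matched to genes of the files, the seed of miR-503-5p was found in no other gene.

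**Figure D4:**
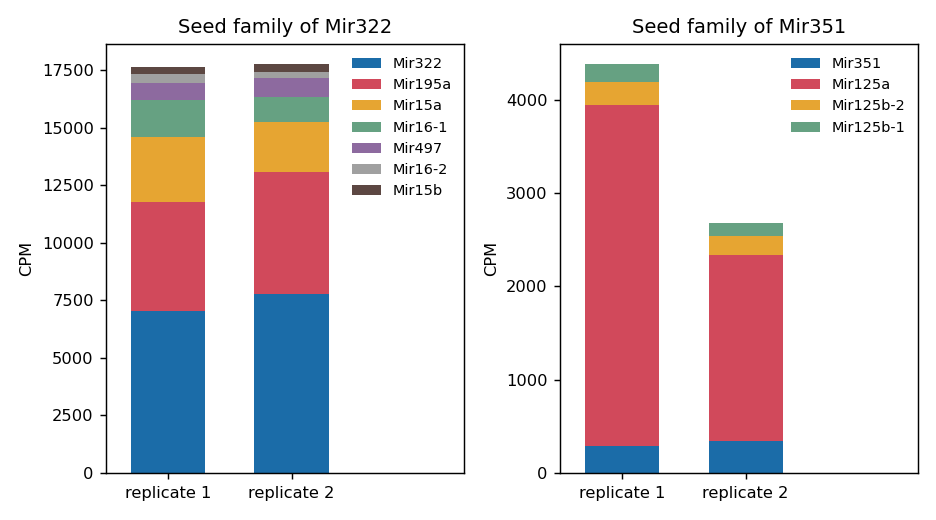
Stacked CPM of the detected genes of the seed families of Mir322 (left) and Mir351 (right) in each library, on linear axes from 0 that differ between the panels. Mir322 forms the largest block of its family at 7025 and 7798 CPM, while Mir351 is a thin block beneath Mir125a.

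On the X chromosome, 29 of 142 microRNA genes were detected, and by placed reads Mir322 had the highest level of them in both libraries. The 6 cluster genes held 35.0% (34.5 to 35.4) and 38.6% (38.2 to 39.0) of all X-linked microRNA counts, a mean of 36.8% ± 2.57 (SD, n = 2). Both shares are of placed reads, so reads that fit several genes are missing from them. After Mir322 came Mirlet7f-2 at 4985 CPM ± 426, Mir98 at 2699 CPM ± 12.0 and Mir361 at 1627 CPM ± 21.1 (SD, n = 2 each). Mir351, Mir542, Mir503, Mir450b and Mir450-2 were at places 11, 13, 18, 23 and 28 of the 29. Of the 29 X-linked genes 4 were called between libraries, beside 11.9% of all detected genes, and none of those was in the cluster.

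**Figure D5:**
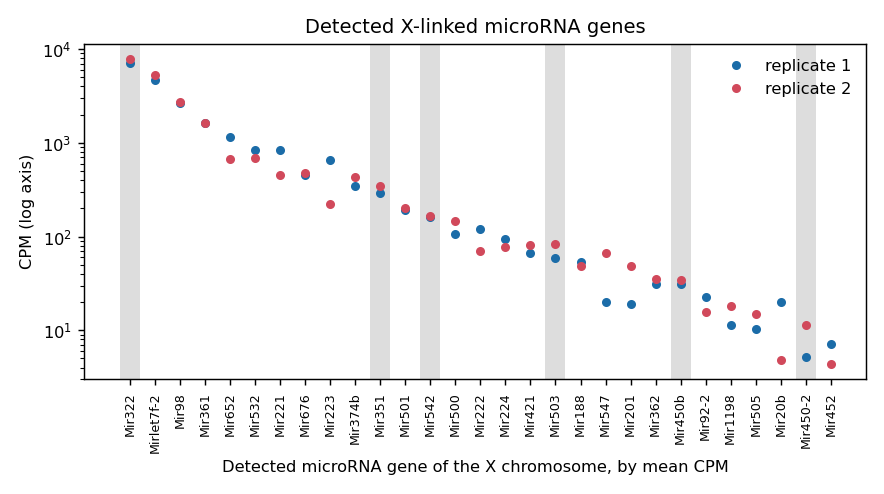
CPM on a log axis of the 29 detected microRNA genes of the X chromosome, ordered by mean CPM, in replicate 1 (blue) and replicate 2 (red), with the 6 cluster genes shaded. Mir322 is the first, and the other 5 spread from place 11 to place 28.

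Clusters of microRNA genes, taken as genes on 1 strand within 10000 bp of each other, can be compared by how unequal their genes are. Of the 6 clusters with at least 4 detected genes, the Mir322 cluster had the highest share in its leading gene, at a mean of 92.6%. The cluster led by Mir127 followed at 69.5% and another X-linked one, led by Mir532, at 65.1%, with those led by Mir467e, Mir17 and Mir411 between 48.1% and 46.3%. The highest gene exceeded the second 23.3-fold in mean CPM in the Mir322 cluster, against at most 4.30-fold in the others. The log2 ratios between libraries had an SD of 0.394 within the cluster, which lay inside the range of 0.199 to 0.544 over the 6 clusters. The minimum of 4 genes was chosen with the values known, and no test was made. It leaves out smaller clusters, so the lead of the Mir322 cluster holds only among these 6. It also holds only for placed reads of detected genes, since reads that fit several genes are missing from these counts. The neighbours Mir143 and Mir145a, for example, were more unequal. They had 382581 against 12494 counts in replicate 1 and 216280 against 6792 in replicate 2.

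By level over the 2 libraries, measured as Euclidean distance in log2 CPM, the detected genes nearest to Mir322 were Mir29a (8827 and 7930 CPM, distance 0.330), Mir100 (9190 and 8536 CPM, 0.409) and Mir139 (5316 and 6867 CPM, 0.442). Those nearest to Mir503 were Mir421, also X-linked (67.2 and 80.7 CPM, distance 0.178), Mir192 (50.3 and 75.9 CPM, 0.271) and Mir181a-2 (55.9 and 99.5 CPM, 0.285). With 2 libraries this is a likeness of level alone, and only in placed reads. Mir181a-2 shares 20 nt with Mir181a-1, so reads that fit both are missing from its values.

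Mir322 was also set beside other microRNAs studied in myoblast differentiation. All 20 genes of that list were detected, 15 with log2 ratios above 0 and 5 below, with a median of 0.33, and 0 were called in either direction, beside 11.9% of all detected genes. Mir378a had a mean of 102710 CPM, Mir206, a skeletal muscle microRNA, 34321 CPM and Mir27b 10184 CPM, all above Mir322 at 7412 CPM. Mir378a and Mir27b share 20 nt with Mir378c and Mir27a, so reads that fit both of a pair are missing from them. Mir29a at 8379 CPM was also above it in the mean, but its value in replicate 2 (7930 CPM) lay near that of Mir322 (7798 CPM) and their counting intervals overlapped. Mir214 at 1401 CPM was below Mir322, as were Mir221 and Mir222, known for keeping myoblasts in cycle, at 647 and 95.2 CPM. Mir486 had 777 CPM, but Mir3107 lies on its opposite strand, and overlapping genes were left out of the search for shared 20 nt. No order between Mir486 and the cluster is therefore read. Mir29c, Mir1a-2 and Mir133a-1 had 2322, 212 and 48.0 CPM but also share 20 nt with other genes, so no order between them and the cluster can be read.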

How the data were processed

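The authors deposited raw counts of reads per microRNA gene for either strand, the own strand and the opposite strand. The notes deposited with each library name the mm10 assembly and GENCODE M21, with the aligner and counter not given in the sources used here. Rows that name no gene, 79.3% and 84.1% of reads listed, stayed out of totals and tests. All 2202 identifiers matched the annotation. Own-strand counts were scaled to CPM over all microRNA genes. The exact binomial test used TMM sizes (edgeR 4.0.16, R 4.3.3), with a prior of 0.5 counts for log2 ratios. edgeR's quasi-likelihood test needs replicates within a group, which 1 library against 1 lacks, and was not run. DESeq2 1.42.0 gave alternative size factors. Python 3.11.15 with scipy 1.17.1 gave intervals. The exact binomial test was checked on simulated counts with counting error alone and without TMM scaling, which is less spread than these libraries show. For edgeR only the dispersion estimate was checked on simulated counts, and its exact test was not. Of 1738 mature arms in RefSeq's table, 1678 matched by symbol and 7 by position. Named genes are the 6 members, genes within 10000 bp, the fixed seed, myoblast and marker lists, the 3 genes nearest in level to Mir322 and Mir503, and the 3 other most abundant X-linked genes. The genes leading other clusters, and the remaining genes with a member's seed, were named beyond that rule. The members and lists were chosen with earlier results of these data known. Mir146a was not found by that name.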

Additional observations from a re-analysis of the deposited data

How the results depend on the processing

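Of 71 log2 ratios of the 6 genes over the settings tried, 64 were above 0. Settings that change only the test or the fold minimum repeat the main ratios, so these are not 71 separate results. The tally is no measure of how firm the direction is. The 7 below 0 came from library totals added as alternatives after the data were seen. With totals that leave out Mir143 they were -0.02 for Mir322, -0.13 for Mir542 and -0.03 for Mir450b. With totals of all reads listed they were -0.23 for Mir322, -0.16 for Mir351, -0.33 for Mir542 and -0.24 for Mir450b. Scaling, prior, strand and count minimum left the number of cluster genes called at 0, and dropping the fold minimum raised it to 3. The number of all genes called was 33, and became 154 without a fold minimum, 57 with totals of all reads listed, 18 with at least 50 counts in each library, where Mir450-2 was not tested, and 7 with edgeR's exact test at the estimated dispersion. As a mean over the libraries, the cluster's share of 0.801% became 0.146% over all reads listed, 0.937% without the most abundant gene and 1.10% on counts of either strand, and was 0.758% to 0.844% with 1 library left out. Replicate 2 over replicate 1, that share had a ratio of 1.11 on all own-strand counts, 0.988 without the most abundant gene, 0.856 over all reads listed and 1.21 on either strand. The median level of the 6 genes, 118 CPM, became 138 CPM without the most abundant gene and 162 CPM on either strand, and was 111 to 125 CPM with 1 library left out. These shifts follow from the denominators, since the genes' own counts do not differ between strand settings. The share of Mir322 was 92.7% and 92.4% of the cluster and 39.8% and 43.9% of its seed family in replicates 1 and 2. On counts of either strand the means were 92.6% and 43.8%. Leaving 1 of 2 libraries out only returns the value of the other, so stability between libraries was not tested. For the seed family the counting intervals (39.3 to 40.4 and 43.4 to 44.4) did not overlap. Division by hairpin length was added after the data were seen. With 2 libraries no group could be tested, and Mir450-2 is limited by its depth, with an adjusted exact binomial p of 0.0509 to 0.231 over the settings and 1.00 by edgeR's exact test.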
